A study of Mus musculus with 48 samples.

Results

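Gja5, Sox7, Sox17, Sox18, Cldn5, Cdh5, Flt1, Kdr, Tek and Pecam1 are 10 genes by which endothelial cells, the inner lining of blood vessels, are recognised. They were followed here in cells that had been isolated from mouse pup brains for other surface markers. Members were taken as the array probes outside the control set that carry 1 of these gene names, which gave 16 probes on 26 spots, of 55681 probes on 59305 spots with 34797 different entries in the gene name field. Of these genes, all but Pecam1 belong to a cluster that the study drew from the O4+ arrays, and the lower levels of Gja5 and Sox18 after IL1B at P5 were known, so the genes were in effect chosen by their log2 signals on these arrays. The contrasts of IL1B with PBS in O4+ cells, of IL1B with PBS in CD11B+ cells at P5 and of P10 with P5 in O4+ cells are therefore given as description, without a p-value, and they support nothing about the genes. The contrast of P10 with P5 in CD11B+ cells and those between the cell types share arrays with them and are given in the same way, so only IL1B with PBS in CD11B+ cells at P10 was tested for the members.

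The series holds 48 arrays in 8 groups of 6. Male Swiss pups (named OF1 in the study's methods) received intraperitoneal injections of the cytokine IL1B (10 ng/g) or of the vehicle PBS over postnatal days P1 to P5, and cells were collected at P5 or at P10. O4+ cells, which are late oligodendrocyte precursors and immature oligodendrocytes, and CD11B+ cells were taken with magnetic beads from the same animals. The study treats the CD11B+ cells as microglia. In each sample, 3 brains without cerebellum and olfactory bulbs were pooled. The groups were O4+ cells from PBS pups at P5, from IL1B pups at P5, from PBS pups at P10 and from IL1B pups at P10, and the same 4 groups of CD11B+ cells. Every group thus consists of bead-selected fractions, and in such bulk samples fewer cells of a type and less RNA per cell cannot be told apart.

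Endothelial cells of the brain form a tight wall between blood and tissue. The SoxF transcription factors Sox7, Sox17 and Sox18 act together in vessel development and in the arterial programme. Flt1 and Kdr are receptors for vascular endothelial growth factors, and Tek (also called Tie2) is the receptor for angiopoietins. Cldn5 seals the tight junctions of the blood-brain barrier, Cdh5 (VE-cadherin) builds the adherens junctions and Pecam1 (CD31) is an adhesion molecule that leukocytes and platelets also carry. Gja5 encodes connexin 40, a gap junction protein of arterial endothelium.

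The 250 bases before the transcription start are shown for 3 members that were lower together after IL1B at P5, since the SoxF factors among the members bind promoters of endothelial genes. They come from RefSeq on the GRCm38.p6 build, which had entries for 5 of the 10 members (Gja5, Cldn5, Flt1, Kdr and Tek). Capitals mark the letters ACAAT or ATTGT, the core that SOX factors recognise, and GGAA or TTCC, the core of ETS factors, on either strand. The Gja5 sequence lies on the plus strand at chr3:97032152-97032401, that of Tek on the plus strand at chr4:94739039-94739288 and that of Cldn5 on the plus strand at chr16:18776597-18776846.
Gja5: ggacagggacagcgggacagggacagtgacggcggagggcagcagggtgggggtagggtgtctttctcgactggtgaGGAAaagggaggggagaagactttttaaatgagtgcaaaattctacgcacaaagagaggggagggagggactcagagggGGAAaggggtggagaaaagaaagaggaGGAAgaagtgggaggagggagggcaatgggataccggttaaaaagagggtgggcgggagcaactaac
Tek: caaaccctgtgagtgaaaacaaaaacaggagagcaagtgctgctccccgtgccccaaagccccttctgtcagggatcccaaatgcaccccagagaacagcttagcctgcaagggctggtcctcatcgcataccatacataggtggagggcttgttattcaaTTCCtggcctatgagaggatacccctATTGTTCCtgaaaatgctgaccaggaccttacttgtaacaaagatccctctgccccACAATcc
Cldn5: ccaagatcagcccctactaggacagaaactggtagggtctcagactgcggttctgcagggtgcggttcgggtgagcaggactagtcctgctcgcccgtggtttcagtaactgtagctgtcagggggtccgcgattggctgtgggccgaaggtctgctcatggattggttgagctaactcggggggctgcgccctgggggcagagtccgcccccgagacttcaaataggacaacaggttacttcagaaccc

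The SOX core occurred 2 times before Tek, with 1 of the 2 overlapping an ETS core by a base, and was not found in the other 4 windows. The ETS core occurred 3 times before Gja5, 2 times before Tek, 4 times before Flt1 and 4 times before Kdr, and was not found before Cldn5. Of 32851 mouse promoters of this length, 27.7% hold the SOX core and 93.4% the ETS core, so a match is common. These matches describe the letters and are not evidence of binding.

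All values below are log2 signals after quantile normalization, and each gene is given by its brightest probe. These 10 probes were well above background on every array. Levels of different probes are not compared with each other. A probe was called where limma gave an adjusted p under 0.05 and the medians of the groups differed by over 1.5-fold. The oligodendrocyte lineage list of 8 genes had a mean log2 signal of 13.96 to 15.05 on O4+ arrays and 9.19 to 11.23 on CD11B+ arrays. The list of 8 microglial genes lay at 16.17 to 16.86 on CD11B+ arrays and 12.17 to 14.94 on O4+ arrays. Between 54.1% and 66.4% of probes were well above background on an array, and the number of arrays limits the precision. In markers of other cell types, CD11B+ P5 PBS replicate 5 and CD11B+ P10 PBS replicate 6 stood apart: the mural cell list was at 9.24 on the former against 7.42 to 7.89 on the other 5 arrays, and at 8.14 on the latter against 7.18 to 7.50. Of the CD11B+ P5 IL1B group, replicate 3 stood lower in the neutrophil and monocyte list (14.05 against 14.47 to 14.61) and in the oligodendrocyte lineage list (9.19 against 9.54 to 9.71), and replicate 1 higher in the fibroblast list (8.92 against 8.45 to 8.57).

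In O4+ cells at P5, 9 of the 10 genes were lower after IL1B, from Gja5 at 10.2-fold down to Pecam1 at 1.40-fold, while the brightest Kdr probe was level. Of the 10 genes, 8 met the thresholds for a lower level, which 1.49% of all probes did. The contrast had a part in choosing the genes, so nothing is read from this count. On the SoxF factors, Sox18 had a lowest, median and highest log2 signal of 8.76, 9.45 and 10.02 in PBS samples and of 6.97, 7.18 and 7.47 in IL1B samples. Sox17 lay at 9.20, 9.85 and 10.41 in PBS and at 8.07, 8.41 and 8.64 in IL1B samples. All PBS arrays were above all IL1B arrays for both genes. The change was -2.25 ± 0.22 (SE, n = 6 per group) for Sox18, 4.94-fold lower, and -1.46 ± 0.21 for Sox17, 2.76-fold lower. For Sox7, at 8.24, 8.76 and 9.24 in PBS and 7.66, 7.88 and 8.33 in IL1B samples, the ranges overlapped and the change was -0.77 ± 0.20.

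Among the receptors, Tek, which maintains vessel quiescence, lay at 7.69, 8.36 and 8.96 in PBS and at 6.80, 7.01 and 7.21 in IL1B samples. Its groups did not overlap, and the change was -1.35 ± 0.20, 2.61-fold lower. Flt1, which binds VEGF-A tightly, lay at 11.99, 12.48 and 13.14 in PBS and at 11.25, 11.57 and 12.30 in IL1B samples, with overlapping groups and a change of -0.89 ± 0.25. Its second bright probe had a change of -1.38 ± 0.22, and the remaining one was near background.

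Kdr, the main signalling receptor for VEGF-A, gave 2 answers. Its brightest probe, at chr5:76330395-76330454 of mm9, lay at 11.53, 11.72 and 11.92 in PBS and 11.55, 11.73 and 11.88 in IL1B samples, and the groups coincided. The other probe for the same transcript, at chr5:76329309-76329368 and printed on 10 spots, lay at 11.79, 12.35 and 12.87 in PBS and 10.94, 11.09 and 11.61 in IL1B samples. It was 2.45-fold lower, with a change of -1.21 ± 0.21, against -0.01 ± 0.08 for the brightest probe. The 10 spots of that probe varied little, with a median SD within an array of 0.04, so the spread of its spots was far smaller than the gap between the probes. Which of the probes follows the transcript was not tested.

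Of the junction genes, Cldn5 lay at 13.83, 14.46 and 15.04 in PBS and at 12.97, 13.10 and 13.56 in IL1B samples, without overlap, and was 2.60-fold lower with a change of -1.27 ± 0.22. Cdh5 was at 10.15, 10.72 and 11.20 in PBS and 9.68, 9.86 and 10.31 in IL1B samples, where the ranges overlapped, with a change of -0.80 ± 0.20. Pecam1 had the smallest change of the adhesion genes, -0.45 ± 0.15, and stayed under the fold threshold. The arterial connexin Gja5 differed most. It lay at 10.05, 10.80 and 11.49 in PBS samples and at 6.86, 7.45 and 7.73 in IL1B samples, so that more than 2 log2 units separated the closest arrays of the groups, and the change was -3.37 ± 0.25. The groups did not overlap for 5 members, Gja5, Sox17, Sox18, Cldn5 and Tek, a separation seen in 6.89% of all probes.

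**Figure D1:**
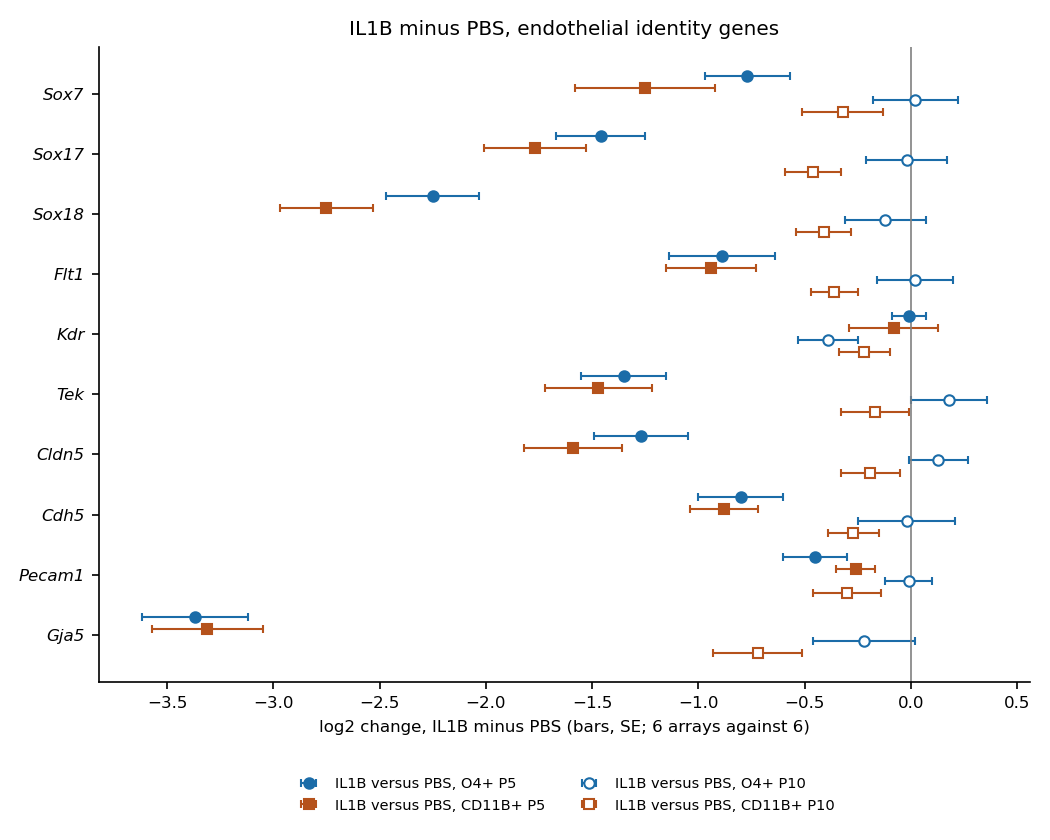
Log2 change from PBS to IL1B with its standard error for each member gene, in O4+ and CD11B+ cells at P5 and P10 (n = 6 per group). Gja5 and Sox18 lie farthest below 0 at P5 in both cell types, at -3.37 and -2.25 in O4+ cells and at -3.31 and -2.75 in CD11B+ cells, and the P10 values lie near 0 in O4+ cells.

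CD11B+ cells at P5 had the same order at the top. Gja5 lay at 8.24, 8.57 and 9.41 in PBS and at 4.84, 5.39 and 6.14 in IL1B samples, 9.09-fold lower with a change of -3.31 ± 0.26. Sox18 lay at 7.23, 7.94 and 8.13 in PBS and 4.53, 5.09 and 5.74 in IL1B samples, 7.24-fold lower with a change of -2.75 ± 0.22. For both genes the highest IL1B array was below the lowest PBS array. Sox17 was 3.48-fold lower, Cldn5 3.39-fold, Sox7 2.63-fold, Tek 2.60-fold, Flt1 2.15-fold and Cdh5 1.76-fold. Pecam1 had a change of -0.26 ± 0.09 and the brightest Kdr probe one of -0.08 ± 0.21, against -1.30 ± 0.17 for the 10-spot probe. Here too 8 of the 10 genes met the thresholds for a lower level, beside 5.25% of all probes, and the groups of 6 of them did not overlap (Gja5, Sox17, Sox18, Cldn5, Tek and Cdh5), as was the case for 9.98% of all probes. The count was 8 when any of the 12 arrays was left out, and 6 with the slide as a block. Over all probes, lower calls went from 2922 to 1299 with that block. The change in O4+ cells minus that in CD11B+ cells ranged over the members from -0.25 (Gja5) to 0.44 (Sox7), with standard errors from 0.18 to 0.40. The arrays of the cell types are distinct but their animals are shared.

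Some of the lists of markers of other cells also changed at P5. All 7 genes of the neutrophil and monocyte list were called higher at P5 in both cell types. Of all probes, 3.43% were called higher in O4+ and 4.05% in CD11B+ cells. These 7 genes were not equally bright in the 2 fractions. In O4+ cells their mean log2 signal spanned 3.15 to 3.96 in PBS samples, where 4 of the 7 genes were well above background on no array, and 5.97 to 9.91 in IL1B samples. In CD11B+ cells it spanned 10.26 to 11.49 in PBS and 14.05 to 14.61 in IL1B samples. Of the 8 microglial genes, 7 were called higher in O4+ cells at P5, with mean signals of 13.13 to 13.81 in PBS and 14.55 to 14.94 in IL1B samples. Of the 11 genes of mural cells, which wrap the vessels, none was called by limma in O4+ cells at P5. Still, all 11 changes were negative there and 5 were lower at an unadjusted p under 0.05 (19.4% of all probes). In CD11B+ cells 5 were called lower and 1 higher (5.25% and 4.05% of all probes). The mural mean signal spanned 8.15 to 9.47 in PBS and 7.29 to 9.06 in IL1B samples of O4+ cells, and 7.42 to 9.24 and 6.94 to 7.43 in CD11B+ cells. Other lists changed little. In O4+ cells limma called no gene of the oligodendrocyte lineage, astrocyte, neuron, fibroblast or erythroid list. In CD11B+ cells it called no neuron or fibroblast gene, 1 microglial and 1 erythroid gene lower, and 1 astrocyte gene higher. Of the 8 oligodendrocyte lineage genes there, 1 was called higher and 2 lower. The part of all these lists in the members' values was not tested.

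Slides held arrays of both treatments in places. In O4+ cells the difference for Gja5 was -3.52 within slide 1 (1 IL1B and 4 PBS arrays) and -3.22 within slide 2 (1 and 2 arrays), and for Sox18 it was -2.42 and -1.85. In CD11B+ cells, slide 2 (4 IL1B arrays and 1 PBS array) gave -4.03 for Gja5 and -3.28 for Sox18. Every member but Kdr was lower in the IL1B arrays within each of these slides. On slide 2 of the O4+ cells the differences were smaller than over all arrays, at -0.86 for Cldn5, -1.02 for Tek and -0.16 for Pecam1, and the brightest Kdr probe was at 0.11 on slide 1. With the slide as a block, 5 members met the thresholds in O4+ cells, in place of 8. Over all probes, lower calls went from 827 to 568 with that block. Replicates 2, 4 and 5 of the O4+ P5 PBS group, all on slide 1, were the 3 highest arrays of their group for all 10 genes. Replicate 1 of that group was on slide 1 too and was not among the 3 highest. Without replicate 2, 4 or 5 of that group, 5 members met the thresholds in O4+ cells, in place of 8.

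**Figure D2:**
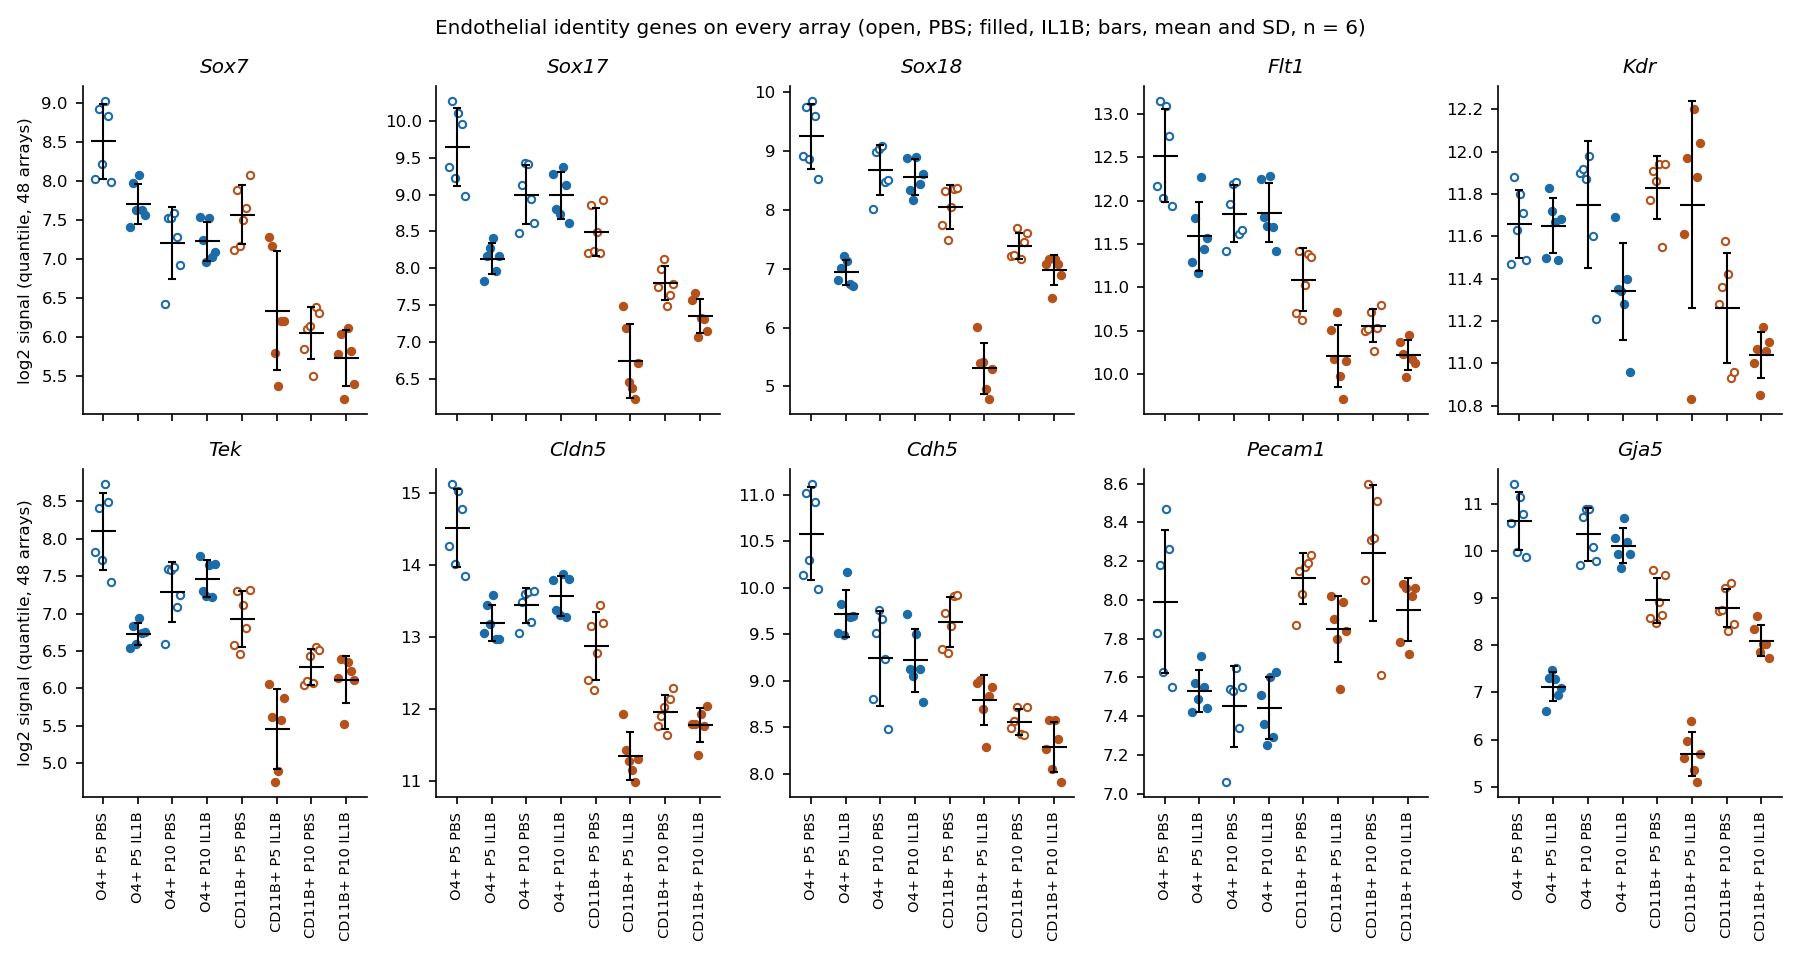
Log2 signal of each member gene on every array, by group of 6, with the cell types normalized together over 48 arrays. Points are arrays and the bars group means. The IL1B groups at P5 sit below their PBS groups for Gja5, Sox17 and Sox18 without overlap, while the brightest Kdr probe and Pecam1 cover a narrow range.

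By P10, days after the last injection, the O4+ values of the members had drawn together. Gja5 lay at 9.88, 10.53 and 11.00 in PBS and at 9.81, 10.21 and 10.80 in IL1B samples, and Sox18 at 8.26, 8.97 and 9.30 and at 8.41, 8.76 and 9.11. The groups overlapped for each of these genes. The changes of the 10 members ranged from -0.39 ± 0.14 (Kdr) to 0.18 ± 0.18 (Tek), and none met the thresholds, beside 1.42% of all probes for lower and 2.49% for higher levels. This contrast too had a part in choosing the genes, so nothing is read from the count. Within slide 4 (2 IL1B and 5 PBS arrays) the difference was -0.33 for Gja5 and -0.11 for Sox18, and within slide 5 (1 array each) it was 0.14 and 0.10. The IL1B change at P10 minus that at P5 was 3.28 ± 0.38 for Gja5, 2.18 ± 0.31 for Sox18 and 1.51 ± 0.30 for Sox17 in O4+ cells, and 2.57 ± 0.33, 2.33 ± 0.26 and 1.29 ± 0.27 in CD11B+ cells. For the brightest Kdr probe it was -0.40 ± 0.17 and -0.14 ± 0.23. The 10-spot Kdr probe went the other way. Its IL1B change was -1.21 at P5 and -0.01 at P10 in O4+ cells, and -1.30 and -0.28 in CD11B+ cells. In O4+ cells at P10, 5 of 7 neutrophil and monocyte and 4 of 8 microglial genes were called higher (2.49% of all probes). The median changes of these lists were 2.21 and 0.53. Of the 7 neutrophil and monocyte genes, 1 was well above background on all 12 arrays. The part of these lists in the P10 values of the members was not tested.

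In CD11B+ cells at P10, a contrast whose arrays did not enter the choice of genes, no member passed the test, although all 10 changes were negative. Gja5 lay at 8.06, 8.51 and 9.11 in PBS and at 7.49, 7.78 and 8.38 in IL1B samples, with a change of -0.72 ± 0.21 and an adjusted p of 0.0622 by limma. The ranges overlapped. Sox17 had a change of -0.46 ± 0.13 (limma adjusted p = 0.0599), Flt1 one of -0.36 ± 0.11 (limma adjusted p = 0.0679) and Sox18 one of -0.41 ± 0.13 (limma adjusted p = 0.0892). The other 6 changes lay between -0.32 (Sox7) and -0.17 (Tek), with limma adjusted p-values from 0.213 to 0.591. The test called 0 of 10 members lower, beside 1.08% of all probes. At an unadjusted p under 0.05, 5 members were lower, as were 12.2% of all probes, and the methods' t-test called 0. When only probes well above background were tested, Gja5 was called, and likewise without CD11B+ P10 PBS replicate 6. The P10 PBS samples also serve in the comparison of ages, so these values are not independent of it. Within slide 9, which held 5 IL1B and 2 PBS arrays, the difference was -0.74 for Gja5, -0.53 for Sox18, -0.34 for Sox17 and 0.09 for Kdr. In the same contrast limma called none of the 7 neutrophil and monocyte genes, 6 of which were higher at an unadjusted p under 0.05. Their mean signal was 10.51 to 10.97 on 5 of the PBS arrays, 12.88 on PBS replicate 6 and 11.54 to 12.40 in IL1B samples, so that all IL1B arrays lay above all PBS arrays but that one. Its part in the members' values was not tested.

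With age, most members were lower at P10 than at P5 in CD11B+ cells of PBS pups. Sox7 and Cdh5 differed most, whereas Gja5 and Pecam1 did not meet the thresholds. The P5 arrays are those of the IL1B contrast that had a part in choosing the genes, so the values are a description. Sox7 lay at 6.86, 7.32 and 7.84 at P5 and at 5.23, 5.85 and 6.12 at P10. Cdh5 lay at 9.10, 9.48 and 9.76 and at 8.19, 8.30 and 8.50. Neither gene's ages overlapped. The change on the log2 scale was -1.54 ± 0.20 for Sox7, 2.78-fold lower, and -1.12 ± 0.13 for Cdh5, 2.28-fold lower. Cldn5 had a change of -0.96 ± 0.21, from a median of 12.97 to 11.92, with overlapping groups. The 4 members Sox17, Sox18, Tek and Flt1 had changes between -0.71 and -0.56. Kdr was at -0.60 on its brightest probe and at -1.13 on the 10-spot probe, so both probes were lower at P10 here.

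Gja5, by contrast, had a change of -0.17 ± 0.25 and Pecam1 one of 0.14 ± 0.15. In all, 8 of the 10 members met the thresholds for a lower level at P10, beside 3.61% of all probes, and the ages of 3 did not overlap (Sox7, Cdh5 and Sox17), beside 5.57%. The second probe of Sox17 was at a change of -0.09 ± 0.26. The count was 2 with the scan day as a random block (Sox7 and Cdh5), 5 with the slide as a random block, 5 after normexp background correction and 6 without the CD11B+ PBS arrays that stood apart, and it was 4 when P5 PBS replicate 2, 4 or 6 was left out and 5 without P10 PBS replicate 1. Over all probes, lower calls went from 2011 to 868 with the scan day, to 1315 with the slide and to 957 after normexp. No slide held PBS arrays of both ages.

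In O4+ cells of PBS pups, described without a test, the order was alike at the top. Cdh5 and Sox7 had changes of -1.26 ± 0.26 and -1.26 ± 0.25, Cldn5 of -1.04 ± 0.22 and Tek of -0.79 ± 0.25, and these 4 met the thresholds, beside 8.96% of all probes. Gja5 had a change of -0.27 ± 0.30. The brightest Kdr probe was at 0.08 ± 0.13 and the 10-spot probe at -1.24 ± 0.23. All 6 fibroblast genes were called lower over the same interval in these cells, from mean signals of 9.30 to 10.64 at P5 to 8.39 to 9.11 at P10, and their part in the members' values was not tested.

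**Figure D3:**
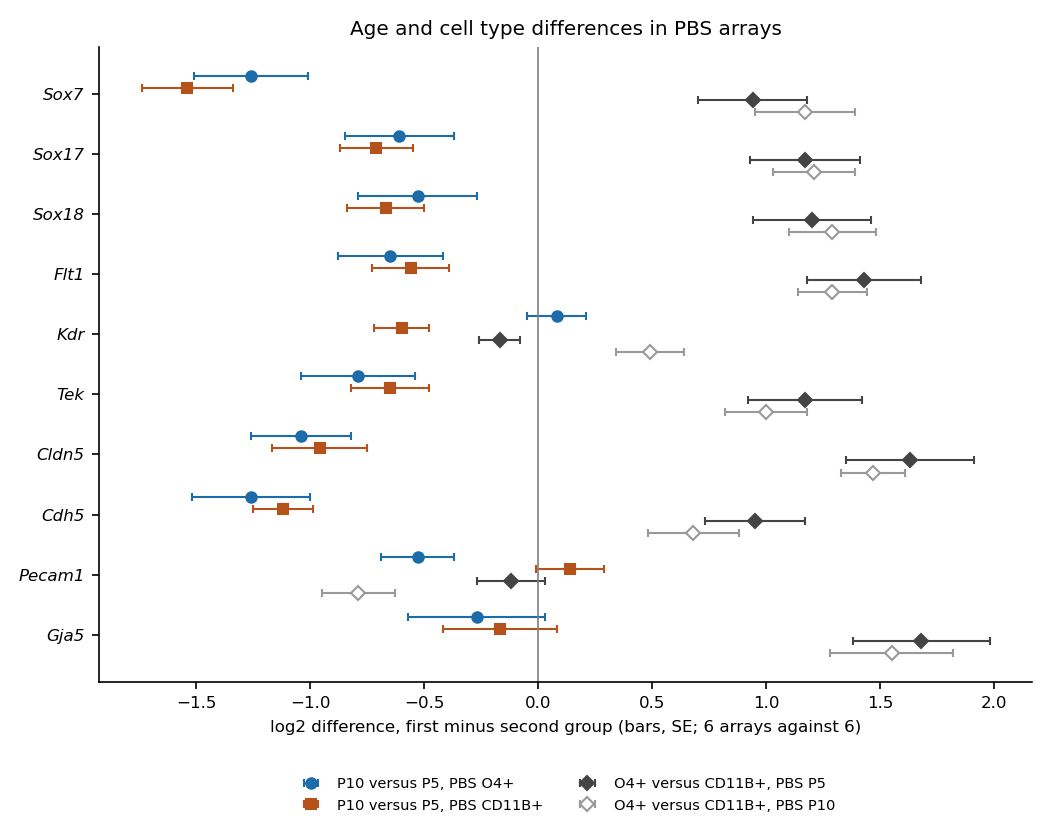
Log2 change with its standard error for each member gene in PBS samples (n = 6 per group), from P5 to P10 in each cell type and from CD11B+ to O4+ cells at each age. Sox7 and Cdh5 lie lowest for age, at -1.54 and -1.12 in CD11B+ cells. In the comparison of cell types Pecam1 is the only member with negative values at both ages, and the brightest Kdr probe is negative at P5.

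Between the cell types, most members were higher in the O4+ than in the CD11B+ fraction of PBS pups. The genes were in effect chosen on the O4+ arrays, so this too is a description. At P5 the difference was 1.68 ± 0.30 for Gja5, 1.63 ± 0.28 for Cldn5 and 1.43 ± 0.25 for Flt1. Sox18, Sox17, Tek, Cdh5 and Sox7 were higher by 0.94 to 1.20. Pecam1 (-0.12 ± 0.15) and the brightest Kdr probe (-0.17 ± 0.09) did not meet the thresholds, while the 10-spot Kdr probe was higher by 1.26. These 8 of 10 members met the thresholds for a higher level by limma, beside 19.8% of all probes. No member met those for a lower one, beside 21.8%. Slide 2 was the only one with PBS arrays of both cell types at P5 (2 O4+ arrays and 1 CD11B+ array), and within it the difference was 0.43 for Gja5, 0.73 for Cldn5, 0.33 for Sox18 and 0.02 for Sox7, so that with the slide as a block no member was called. With the scan day as a block, 8 were. Over all probes, 9541 were called higher with the slide as a block, in place of 11021.

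At P10 again 8 members, all but Kdr and Pecam1, met the thresholds for a higher level in O4+ cells, beside 22.2% of all probes. The differences ran from 0.68 ± 0.20 for Cdh5 to 1.55 ± 0.27 for Gja5. Kdr was higher by 0.49 but under the fold threshold on its brightest probe. Pecam1, which leukocytes also carry, went the other way and met the thresholds for a lower level in O4+ cells, with a difference of -0.79 ± 0.16, beside 20.2% of all probes. No slide held PBS arrays of both cell types at P10.

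Across all 8 groups, ordered by mean signal on the 48 arrays normalized together, 8 members were highest in O4+ P5 PBS samples, and 6 were lowest in CD11B+ P5 IL1B samples. For Gja5 the group means were 10.63 ± 0.62 (SD, n = 6) in O4+ P5 PBS, 10.35 ± 0.56 in O4+ P10 PBS and 10.11 ± 0.37 in O4+ P10 IL1B samples, neighbours that did not differ beyond their spread. CD11B+ P5 PBS (8.95 ± 0.48) and CD11B+ P10 PBS (8.79 ± 0.40) came next and did not differ from each other beyond their spread either. CD11B+ P10 IL1B (8.10 ± 0.32), O4+ P5 IL1B (7.12 ± 0.31) and CD11B+ P5 IL1B (5.69 ± 0.46) each lay below the group before by more than 1 SD. The group means of Gja5 spanned 4.94 log2 units, those of Sox18 3.94 and of Cldn5 3.16. The brightest Kdr probe and Pecam1 spanned 0.79 and 0.80, and most of their neighbours in the order did not differ beyond their spread. The 10-spot Kdr probe ran from 12.34 ± 0.51 in O4+ P5 PBS samples, its highest group, to 9.75 ± 0.16 in CD11B+ P10 IL1B samples.

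**Figure D4:**
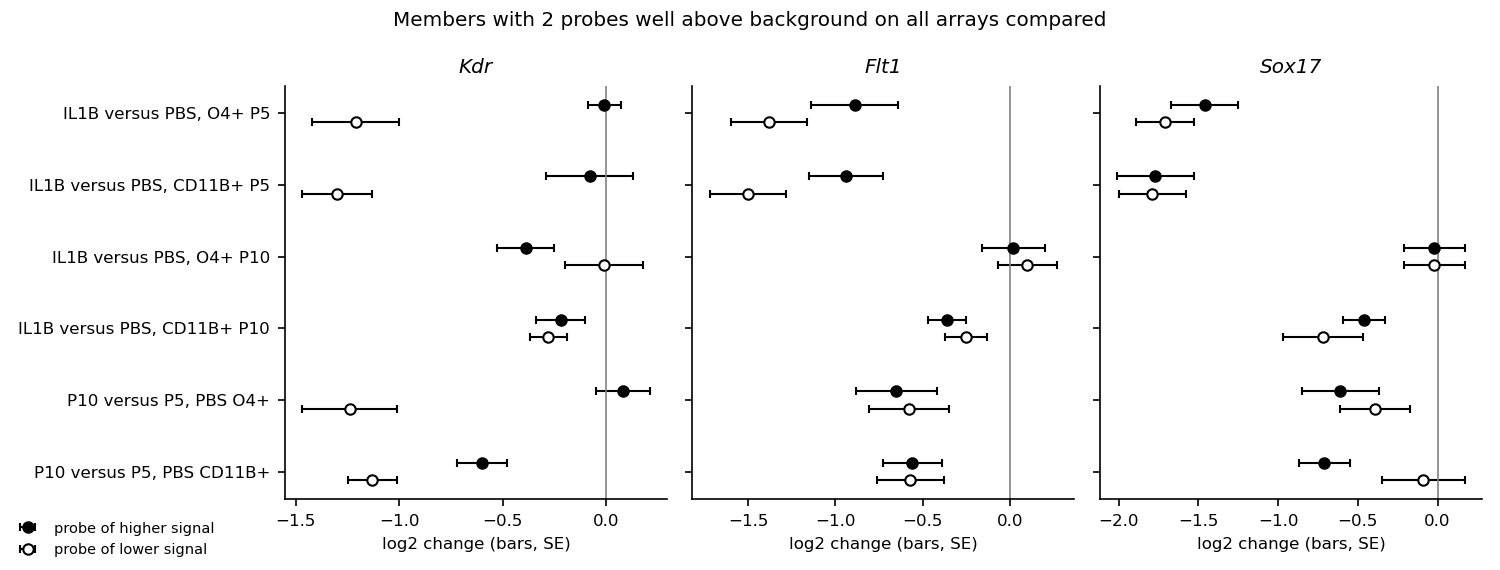
Log2 change with its standard error for the 2 bright probes each of Kdr, Flt1 and Sox17 (n = 6 per group). Shown are PBS to IL1B, by cell type and age, and P5 to P10 in PBS samples of each cell type. After IL1B at P5 the probes of Sox17 lie together, and those of Kdr lie apart (-0.01 and -1.21 in O4+ cells). With age in CD11B+ cells the Sox17 probes lie at -0.71 and -0.09.

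The members also varied together among arrays of the same group. After the mean of each of the 8 groups was taken off, each member's Pearson correlation with the mean of the other 9 over the 48 arrays was 0.91 for Sox18, 0.90 for Sox17, 0.85 for Sox7 and Cdh5, 0.83 for Tek, 0.81 for Flt1, 0.80 for Cldn5 and 0.74 for Gja5. It was 0.57 for Pecam1 and 0.22 for the brightest Kdr probe. The 10-spot Kdr probe did not enter these correlations. The cell types differed in this: over the 24 O4+ and the 24 CD11B+ arrays it was 0.84 and 0.20 for Pecam1, 0.52 and -0.07 for Kdr and 0.89 and 0.52 for Gja5. Of 16766 genes well above background on at least 24 arrays, the 10 whose deviations were most like the mean of the members were She and Ptprb (r = 0.97), Abcb1a, Gpr116 and Ptrf (0.92), Lsr and Nos3 (0.91), and Tie1, Ehd2 and Slco1a4 (0.90). Ptprb is the endothelial phosphatase VE-PTP, Abcb1a the P-glycoprotein pump of the blood-brain barrier, Nos3 the endothelial nitric oxide synthase and Tie1 the partner receptor of Tek. With the group means kept, the top 5 were Nos3, She (0.98), Ushbp1, Lsr and Ehd2 (0.97). Arrays share their processing and the composition of the fraction, so these coefficients are a description. Of the 10 genes, 9 were again in the top 10 after scaling to the 75th percentile, 6 on O4+ arrays alone and 5 on CD11B+ arrays alone.

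The wider endothelial programme was read from 69 further genes in 8 lists. These lists were drawn up with the lower levels of the members at P5 known and are read on the same arrays, so their counts are no independent support for those levels. In O4+ cells at P5, 39 of the 69 were called lower and 4 higher (1.49% and 3.43% of all probes), with a median change of -0.70 against -0.04 over all probes. In CD11B+ cells 43 were called lower and 1 higher (5.25% and 4.05%), with a median of -0.95 against -0.01. The calls shared by both were 34 genes, of 39 in O4+ and of 43 in CD11B+ cells. With the slide as a block, 23 of the 69 were called lower in O4+ and 24 in CD11B+ cells. Over all probes, lower calls fell too with that block, from 827 to 568 in O4+ and from 2922 to 1299 in CD11B+ cells. The counts of single lists with the slide as a block below are to be read beside these. Without O4+ P5 PBS replicate 2, 4 or 5, the arrays highest for the members, 28 to 29 were called lower in O4+ cells.

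Of the arterial and Notch genes, 8 of 10 fell in O4+ and 7 of 10 in CD11B+ cells, and the counts were 8 and 7 with the slide as a block. Unc5b, a netrin receptor of arterial and tip cells, fell by 1.46 on the log2 scale in O4+ cells (SE 0.19, limma adjusted p = 0.000348) and by 1.83 in CD11B+ cells (SE 0.21, limma adjusted p = 8.16e-05). Gja4, the connexin 37 partner of Gja5 in arterial endothelium, fell by 1.39 and by 1.60, and Gkn3 and Sema3g fell by 1.16 to 1.44. Hey1, a Notch target, had changes of -0.27 and -0.75, but its group medians differed 1.19-fold and 1.36-fold, under the threshold.

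Among blood-brain barrier genes 9 of 12 fell in O4+ and 11 of 12 in CD11B+ cells, counts that were 3 and 5 with the slide as a block. Lef1, the transcription factor through which Wnt signals build the barrier, fell by 1.77 (SE 0.19, limma adjusted p = 8.57e-05) and by 1.94 (SE 0.28, limma adjusted p = 0.000363). Ocln, a tight junction protein, fell by 1.41 and 1.30, the anion transporter Slco1a4 by 1.26 and 1.14, and the Wnt inhibitor Apcdd1 by 0.76 and 1.31. The glucose transporter Slc2a1, which other brain cells also use, had changes of -0.04 ± 0.18 and 0.39 ± 0.08 and was not called. Of the 18 core endothelial genes, 11 fell in each cell type. The O4+ count was 7 without P5 PBS replicate 2, 4 or 5, and the CD11B+ count 7 with the slide as a block. Egfl7, a matrix protein that endothelial cells secrete, fell by 1.51 in O4+ cells (SE 0.21, limma adjusted p = 0.000595) and by 1.95 in CD11B+ cells (SE 0.11, limma adjusted p = 5.36e-07). Nos3 fell 2.99-fold and 3.02-fold (limma adjusted p = 0.00076 and 0.000138), Clec14a by 1.28 and 2.02 and Podxl by 1.21 and 2.23. Eng and Ecscr were called in neither.

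The venous list split. Ephb4, the receptor for ephrin-B2 and a venous marker, fell by 1.74 (SE 0.27, limma adjusted p = 0.00107) and by 2.20 (SE 0.32, limma adjusted p = 0.000425), Aplnr by 1.40 and 1.52, and Vwf by 0.66 and 0.98. Ackr1, the chemokine-binding receptor of venules, rose 3.14-fold in O4+ cells (change 1.61 ± 0.15, limma adjusted p = 3.86e-05) and 16.3-fold in CD11B+ cells (change 4.01 ± 0.27, limma adjusted p = 1.62e-06). Ackr1 was the only one of the 69 genes called higher at P5 in both. In all, 3 of the 6 venous genes fell in O4+ and 5 in CD11B+ cells, and 1 and 2 with the slide as a block.

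Of the receptor partners, 3 of 4 fell in O4+ and 4 of 4 in CD11B+ cells. In O4+ cells the count was 1 without P5 PBS replicate 2, 4 or 5, and with the slide as a block the counts were 1 and 2. Ptprb fell by 1.57 and 1.82 and Tie1 by 0.81 and 0.95. The list includes Flt4, whose probe was well above background on 1 of 6 O4+ and 0 of 6 CD11B+ IL1B arrays. Nrp1, the VEGF co-receptor, had a change of -0.39 ± 0.13 in O4+ cells and fell by 0.71 in CD11B+ cells. Among 6 ligands, Vegfc, the growth factor for Flt4 and Kdr, fell by 1.11 (SE 0.17, limma adjusted p = 0.00107) and by 1.55 (SE 0.20, limma adjusted p = 0.000156), and it was the only ligand called at P5. Angpt2, Pgf and Angpt1 were not called at that age.

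Of 7 further endothelial transcription factors, 2 fell in O4+ and 3 in CD11B+ cells, and 1 and 0 with the slide as a block. The ETS factor Erg fell by 1.01 and 0.91, and Epas1 by 0.99 in CD11B+ cells. Klf2, a flow-responsive factor that microglia also express, rose by 0.81 in O4+ cells (SE 0.18, limma adjusted p = 0.0102) with a change of -0.21 ± 0.09 in CD11B+ cells. Of the 6 genes of angiogenic sprouts, Plvap fell by 0.60 and 0.65 and Esm1 by 1.10 in O4+ cells. Neither was called in O4+ cells without P5 PBS replicate 2 or 4 or P5 IL1B replicate 5, and 1 of them without P5 PBS replicate 5 or P5 IL1B replicate 1, 3 or 6. No gene of this list was called lower in either cell type with the slide as a block. Pdgfb and Kcne3 rose in O4+ cells by 0.93 and 0.92. Pdgfb recruits pericytes to vessels.

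**Figure D5:**
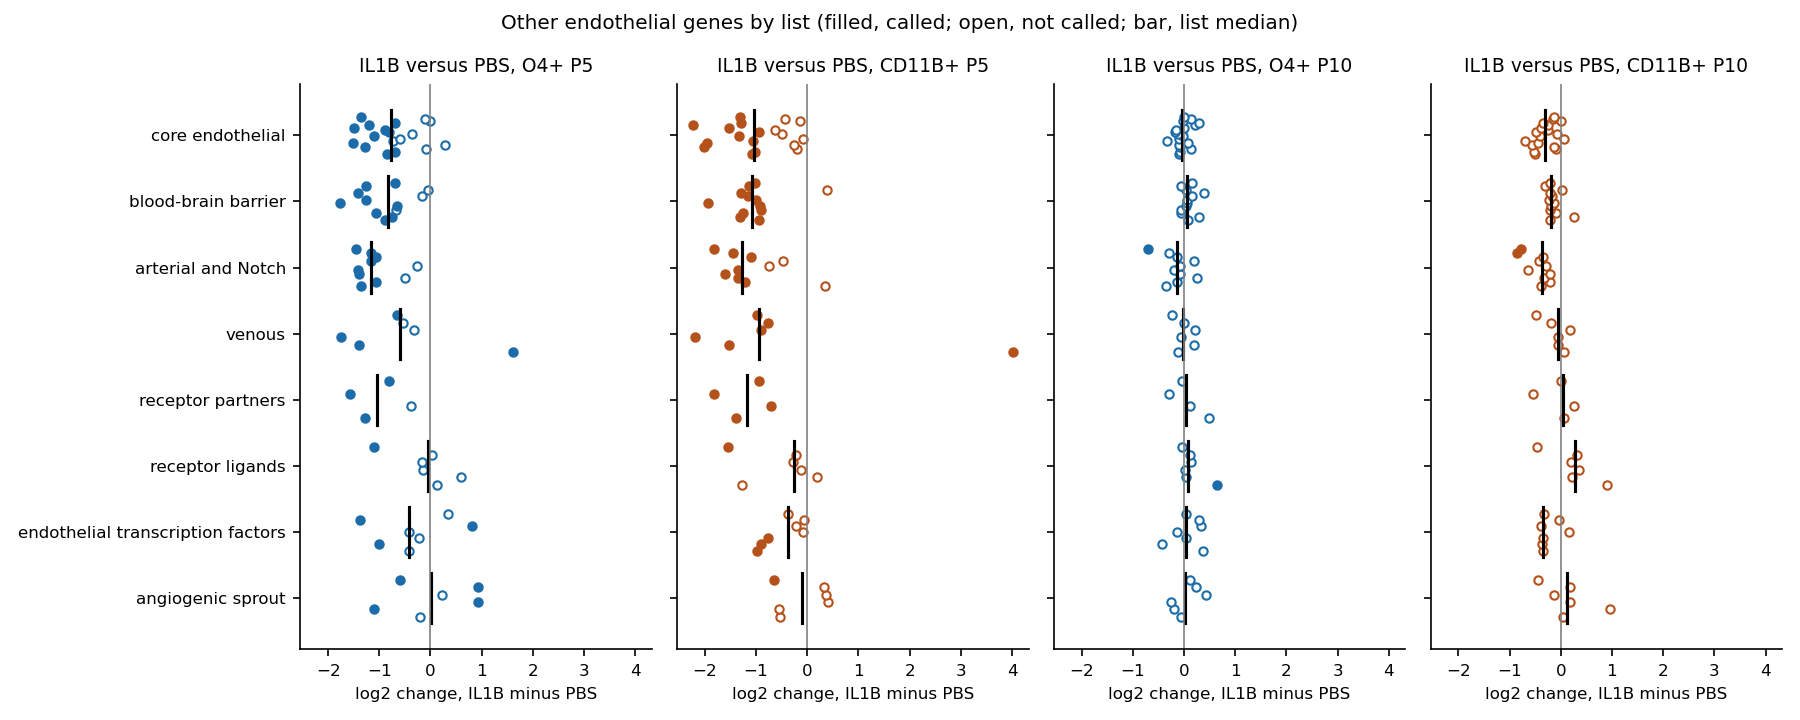
Log2 change from PBS to IL1B for 69 endothelial genes outside the members, in 8 lists, for each cell type and age (n = 6 per group). At P5, 59 points lie below 0 in O4+ and 62 in CD11B+ cells. Ackr1 lies farthest above 0, at 1.61 in O4+ and 4.01 in CD11B+ cells. At P10 the points gather near 0.

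At P10, 1 of the 69 genes was called lower and 1 higher in O4+ cells (1.42% and 2.49% of all probes), Unc5b (change -0.71 ± 0.10, limma adjusted p = 0.00298) and Angpt1 (0.64 ± 0.12, limma adjusted p = 0.00898), and the median change was 0.01 against -0.02 over all probes. In CD11B+ cells 2 were called lower and 0 higher (1.08% and 1.09% of all probes), Sema3g (-0.85 ± 0.20, limma adjusted p = 0.0336) and Unc5b (-0.77 ± 0.13, limma adjusted p = 0.0145). The median was -0.20 against 0.00, and at an unadjusted p under 0.05, 24 were lower and 4 higher (12.2% and 10.7% of all probes). The methods' t-test called 2 of the 69 in each cell type at P10. The IL1B response differed between P10 and P5 by an interaction term for 36 of the 69 genes in O4+ cells, 34 with a higher and 2 with a lower value at P10 (7.97% and 5.48% of all probes), and for 32 in CD11B+ cells, 30 and 2 (10.4% and 6.15%). Between the cell types at P5 it differed for 8 genes, 6 higher and 2 lower in O4+ cells (6.93% and 3.78%), and at P10 for 3, all higher in O4+ cells (3.92% of all probes, and 3.65% for lower).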

How the data were processed

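Total RNA of each sample was labelled with Cy3 and hybridised to 1 Agilent mouse array, and Feature Extraction 10.7.3.1 made the scanner files, per the file headers. The deposited values are, for each spot, a background-subtracted intensity on a linear scale. The deposited value table holds, as a ratio, the same signal divided by the array's median, and served as an alternative. The authors' methods name quantile normalization, an equal-variance test, false discovery rates and ratios of medians.

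Intensities were taken to log2 without the 278 non-uniform spots, given 1 common distribution by quantile normalization within each cell type's 24 arrays (all 48 for cell types compared, interactions and orders of levels), and spots of the same probe were averaged. The test was limma 3.58.1 (R 4.3.3, with data.table, version 1.17.8) on groups of 6, adjusted over 55681 probes by the Benjamini-Hochberg method. Calls needed an adjusted p under 0.05 and a ratio of linear medians over 1.5. Interactions had no fold threshold. Promoters and figures used Python 3.11.15 and matplotlib 3.10.9. The fit was tested on simulated data.

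The members and lists were chosen with earlier results of these data known. All members are named by their brightest probe. From each list, up to 4 called genes of largest change and up to 2 that were never called are named, as are the 10 and 5 genes most correlated with the mean of the members. Genes named for an interaction were chosen after their values were seen. Alternatives were 75th percentile scaling, normexp (offset 50), the deposited ratios, other probe rules, the t-test, no fold threshold, slide, scan day and replicate number as blocks, all groups in 1 fit, and each array left out. The alternatives for interactions and the removal of the CD11B+ PBS arrays that stood apart were added after seeing the data.

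Replicate numbers of PBS and IL1B samples were not taken to pair them. Samples of the same cell type are independent per the study, so p-values measure the spread between pools of pups. O4+ and CD11B+ samples share animals that the labels do not pair, which the interactions between cell types leave out of account. The tests of members with age in CD11B+ cells and between cell types share arrays with the choice of the genes, so their p-values are not given. The description of the P10 samples says P5, while their other fields say P10, and they place collection 2 h after the last injection where the methods say 4 h.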

Additional observations from a re-analysis of the deposited data

Results flagged for a closer look

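Of 80 groups of 6 arrays (10 genes in 8 groups), 1 had an array that stood apart by Dixon's criterion, where chance gives about 1 in 20. Tek was at 5.25 on CD11B+ P10 IL1B replicate 3, against 5.84 to 6.12 on the other 5 arrays of the group.

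Responses to IL1B differed between the cell types at P5 for 8 of the 69 endothelial genes outside the members, in a fit that does not take the shared animals into account. Of the 69, 6 were higher and 2 lower in O4+ cells, beside 6.93% and 3.78% of all probes. With the slide as a block, 4 passed in place of 8. The response in O4+ cells minus that in CD11B+ cells (limma interaction, n = 6 per group) was 1.03 for Klf2 (adjusted p = 0.00206), 0.90 for Mfsd2a (adjusted p = 0.00474), 0.75 for Efnb2 (adjusted p = 0.000559), 0.74 for Tal1 (adjusted p = 0.0114), 0.65 for Pdgfb (adjusted p = 0.0115) and 0.25 for Vegfb (adjusted p = 0.0381). It was -2.17 for Ackr1 (adjusted p = 5.13e-05) and -1.73 for Bmx (adjusted p = 0.000118). At P10 the responses differed for 3 genes, Epas1 by 0.73 (adjusted p = 0.00568), Klf2 by 0.72 (adjusted p = 0.0498) and Ramp2 by 0.63 (adjusted p = 0.00187). All 3 were higher in O4+ cells, beside 3.92% of all probes. At both ages the counts lay near the shares of all probes, so nothing particular to endothelial genes is read from them.

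Responses differed between the ages for 36 of the 69 genes in O4+ cells and for 32 in CD11B+ cells. In O4+ cells 34 were higher and 2 lower at P10, beside 7.97% and 5.48% of all probes. In CD11B+ cells 30 were higher and 2 lower, beside 10.4% and 6.15%. The response at P10 minus that at P5 in O4+ cells was 1.94 for Lef1 (adjusted p = 2.24e-05), 1.81 for Ocln (adjusted p = 0.00115) and 1.74 for Ephb4 (adjusted p = 0.00269), and of opposite sign for Ackr1 at -1.81 (adjusted p = 1.96e-06) and Pdgfb at -0.71 (adjusted p = 0.0322). In CD11B+ cells it was 2.23 for Angpt1 (adjusted p = 0.0107), 2.12 for Ephb4 (adjusted p = 0.000408) and 2.05 for Podxl (adjusted p = 0.0132), and -3.78 for Ackr1 (adjusted p = 3.49e-08) and -0.69 for Bmx (adjusted p = 0.00322). The 7 neutrophil and monocyte genes rose at P5 in both cell types, and their part in these differences was not tested.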

How the results depend on the processing

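Under the alternatives other than left-out arrays, 305 counts stayed within 1.5 times their value and 29 moved. Of the log2 changes of the members, 991 counted as kept and 30 lost a call. Another 7 gained a call, 20 moved by more than the spread and 2 turned sign. For IL1B in CD11B+ cells at P10, age in CD11B+ cells and the cell types, kept meant the same sign and side of the threshold. In the other contrasts it meant a move of less than the SD within groups, and lost calls were not counted. An uncalled change there could turn sign and still count as kept. Kdr did so in CD11B+ cells at P5 with the slide as block (0.08 in place of -0.08). The 2 that counted as turned were both Kdr. They were in CD11B+ cells at P10 with the slide as block (0.09 in place of -0.22) and between cell types at P5 as a mean over its probes (0.55 in place of -0.17). The cause was not tested except where fewer arrays or probes entered.

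With the slide as block, members called lower in O4+ cells at P5 went from 8 to 5 and the other endothelial genes from 39 to 23 lower and from 4 to 2 higher. The other genes went from 43 to 24 lower in CD11B+ cells at P5 and from 2 to 0 at P10, members lower with age in CD11B+ cells from 8 to 5 and members higher in O4+ than CD11B+ cells at P5 from 8 to 0. Interactions went from 8 to 4 between cell types at P5, from 36 to 22 between ages in O4+ and from 32 to 10 in CD11B+ cells. With the scan day as block, the counts were 5 and 24 lower in O4+ cells at P5, 1 other gene lower in CD11B+ cells at P10 and 2 members lower with age in CD11B+ cells, which were 5 after normexp. Percentile scaling and the deposited table each gave 1 member lower in O4+ cells at P10 and 1 (Kdr) lower in O4+ than CD11B+ cells at P5, in place of 0. With only probes above background, 1 member (Gja5) was lower and 1 other gene higher in CD11B+ cells at P10, and 1 was higher with all groups in 1 fit. Averaging probes left 1 other gene lower there. Without a fold threshold, other genes higher were 3 in O4+ cells at P10 and 3 in CD11B+ cells at P5, and 11 were lower in CD11B+ cells at P10. After normexp, 0 were higher in O4+ cells at P10. Lower calls over all probes fell as well with the slide as block. They went from 827 to 568 in O4+ and from 2922 to 1299 in CD11B+ cells at P5. In CD11B+ cells they went from 604 to 35 at P10 and from 2011 to 1315 with age.

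Leaving out each array gave 5 to 9 members lower in O4+ cells and 8 to 8 in CD11B+ cells at P5, 0 to 1 in CD11B+ cells at P10, 3 to 7 lower with age in O4+ (7 without P5 PBS replicate 6) and 4 to 8 in CD11B+ cells, and 8 to 9 higher in O4+ than CD11B+ cells at P10. Other genes lower were 28 to 42 and 41 to 45 at P5 and 0 to 4 in CD11B+ cells at P10, those higher 3 to 5 in O4+ cells at P5 and 0 to 2 in CD11B+ cells at P10. Interactions were 7 to 9 and 2 to 6 between cell types at P5 and P10, and 32 to 39 in O4+ and 32 to 37 in CD11B+ cells between ages.

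Replicate numbers shared by the groups were not taken to pair the samples. Within a cell type, same-numbered arrays of different treatment or age correlated in their deviations at -0.08 to 0.48, and over 0.1 in 0 to 1 of 6 pairs. There, 1 to 3 of 6 samples were closest to their own number. Between O4+ and CD11B+ cells of PBS pups, 4 of 6 were at P5 and 5 of 6 at P10, with correlations of 0.02 to 0.13 and 0.03 to 0.15. Whether equal numbers mark shared animals between the cell types was not tested. With the replicate block, members called lower were 8 and 0 in O4+ cells at P5 and P10, 7 and 0 in CD11B+ cells, and 6 and 7 with age in O4+ and CD11B+ cells, and 8 were higher in O4+ cells at each age. Other genes lower were 41, 1, 39 and 1 in the same order of groups, and interactions 8, 6, 38 and 33.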

Other observations

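The 11 mural cell genes mark the pericytes and smooth muscle cells around vessels. After IL1B at P5 their median change was -0.70 in O4+ and -0.58 in CD11B+ cells, beside -0.70 and -0.95 for the 69 endothelial genes, a difference that was not tested. In CD11B+ cells at P5 after IL1B, 5 fell and 1 rose, beside 5.25% and 4.05% of all probes. Rgs5 fell by 1.37 on the log2 scale (SE 0.31, limma adjusted p = 0.00782), Acta2, an actin of smooth muscle, by 1.40 (SE 0.32, limma adjusted p = 0.00866), Myh11, its myosin, by 1.60 (SE 0.46, limma adjusted p = 0.0282), Notch3 by 1.34 (SE 0.38, limma adjusted p = 0.024) and Pdgfrb, the receptor for Pdgfb, by 1.06 (SE 0.19, limma adjusted p = 0.00193). Anpep, a peptidase of pericytes that myeloid cells also carry, rose by 0.67 (SE 0.09, limma adjusted p = 0.000286). In O4+ cells at P5 limma called 0 of the 11, with 5 lower at an unadjusted p under 0.05 (19.4% of all probes) and 0 called by the methods' t-test, and Rgs5 was at -0.99 ± 0.36 (adjusted p = 0.0822). CD11B+ P5 PBS replicate 5, which stood apart in this list, is among the PBS arrays of the comparison.

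Fibroblast genes behaved otherwise. Of the 6, limma called 0 after IL1B at P5 in either cell type, also 0 at an unadjusted p under 0.05 and 0 by the methods' t-test, with median changes of -0.09 in O4+ and -0.17 in CD11B+ cells, whereas from P5 to P10 in PBS O4+ cells all 6 fell, beside 8.96% of all probes. Col1a1 fell by 1.23 (SE 0.23, limma adjusted p = 0.00143), Dcn by 1.17 (SE 0.25, limma adjusted p = 0.00307) and Lum by 1.26 (SE 0.34, limma adjusted p = 0.013).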
